A study of Mus musculus with 8 samples.

Results

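Cell lines from a metastatic primary lung adenocarcinoma of the mouse (Tmet) were compared, gene by gene, with cells from a non-metastatic tumour carrying a control shRNA (Tnonmet-shControl, called shControl here). The comparison took 2 Tmet and 2 shControl libraries, of 8 in the study, and covered all 23224 genes listed. The other 4 libraries were the same non-metastatic cells with an shRNA against Nkx2-1, or with shRNAs against Nkx2-1, Foxa2 and Cdx2 together (the triple knockdown), and entered the fit to estimate the spread. All groups carry Trp53-/- within one shared engineered genotype, and all cells grew in DMEM with 10% fetal bovine serum. The shControl cells had been infected with viruses expressing an shRNA against luciferase, whereas no virus or shRNA is named for Tmet. Each group therefore stands for the tumour it came from: metastatic history, tumour, animal and viral infection differ together between the groups and cannot be told apart. Nothing states whether the duplicates were separate lines, separate cultures or the same RNA, so the spread that the p-values rest on may be no more than technical.

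Nkx2-1 is a homeobox transcription factor that specifies lung epithelium, and in lung adenocarcinoma its loss is known to uncover programs of stomach and intestine that Foxa factors, Hnf4a and Cdx2 drive. Epithelial cells are held together by E-cadherin, claudins and desmosomes. In the epithelial to mesenchymal transition, transcription factors of the Snail, Zeb, Twist and Prrx families are known to repress those junctions while matrix and cytoskeletal genes come on. The comparison asks how far a line of metastatic origin differs in these programs from a line of non-metastatic origin.

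Most genes with enough counts to test differed between the lines. Levels are given in counts-per-million (CPM), from estimated counts of 14496995 and 18918538 in the shControl libraries and 18093561 and 21044835 in the Tmet libraries, where 3 counts, taken as the floor, stand at 0.151 to 0.2 CPM across the study. Of 13318 genes with enough counts to test, 7628 (57.3%) passed an adjusted p of 0.05 in edgeR's quasi-likelihood test with Benjamini-Hochberg adjustment. Of these, 3892 (29.2%) were higher and 3736 (28.1%) lower in Tmet, and these shares are the background for every count below. Changes above 2-fold were called for 2048 genes (15.4%) upward and 2151 (16.2%) downward, and changes above 16-fold for 593 and 537. The duplicates of one group did not overlap those of the other in 77.2% of tested genes. The median fitted change over all tested genes was 0.02 on the log2 scale. Another 9906 listed genes had too few counts to test. In what follows, "log2 change" is the fitted Tmet minus shControl value ± an approximate SE (2 libraries per group). This SE was worked back from the change and its test statistic. For genes with few counts in either group it can be smaller than counting error alone. Cdhr5, with 4 and 3 counts in Tmet, has ± 0.24, yet the counting interval of its shControl to Tmet ratio is 486 to 2493. For such genes the ± does not give the precision of the fold. The words "higher" or "lower" for a count of genes mean past the adjusted p of 0.05. As these are bulk libraries, fewer cells expressing a gene and less RNA per cell cannot be told apart.

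**Figure D1:**
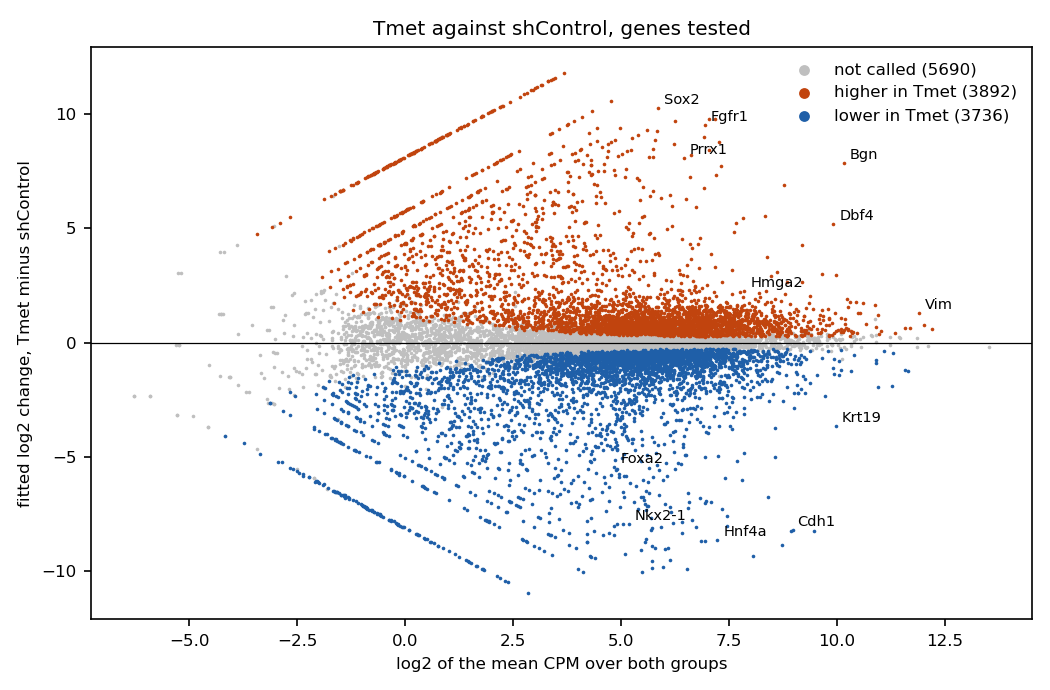
Fitted log2 change between Tmet and shControl (vertical axis) against the log2 of the mean CPM over both groups (horizontal axis), 1 point per tested gene, coloured by call. The 3892 genes called higher and the 3736 called lower fan out to more than 10 log2 units on either side. The straight diagonal edges hold genes with 0 or a few counts in 1 group, whose fitted values are not fold estimates.

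The transcription factors that define lung and gut epithelium were close to absent in Tmet. Nkx2-1 was at 76.4 and 68.0 CPM in shControl and at 0.219 and 0.353 CPM in Tmet, where the libraries held 4 and 7 counts of it (log2 change -7.93 ± 0.24, adjusted p = 3.33e-07). Foxa2, a forkhead factor of endoderm, went from 56.8 and 55.1 CPM to 1.2 and 1.36 CPM (-5.44 ± 0.20, adjusted p = 5.71e-07), and Cdx2, the homeobox factor of intestine, from 98.6 and 111 CPM to 0.383 and 0.353 CPM (-8.13 ± 0.24, adjusted p = 3.02e-07). All 3 genes whose joint action the study's title names were thus low in both Tmet libraries and high in both shControl libraries. Their groups did not overlap, as was so for 77.2% of all tested genes. Hnf4a, the nuclear receptor that drives liver and gut genes, fell from 315 and 281 CPM to 0.547 and 0.907 CPM (-8.65 ± 0.22, adjusted p = 1.87e-07). The endoderm factor Gata6 fell from 57.2 and 57.5 CPM to 0.273 and 0.151 CPM (-8.05 ± 0.21, adjusted p = 2.01e-07). Pdx1, the pancreas and duodenum homeobox factor, was at 43.7 and 35.0 CPM in shControl and had 0 and 2 counts in Tmet, a shControl to Tmet ratio of 741 (95% counting interval 205 to 6121).

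Not every factor of the family fell as far. Foxa1, the closest relative of Foxa2, had 98.9 and 100 CPM in shControl and kept 41.5 and 38.1 CPM in Tmet (-1.32 ± 0.13, adjusted p = 7.6e-05). Onecut2, a homeobox factor of liver and gut, fell from 761 and 636 CPM to 47.2 and 58.4 CPM (-3.73 ± 0.20, adjusted p = 3.88e-06). Irx2 (-1.54) and Klf5 (-1.39) fell by less than the endoderm factors above. In the other direction, Sox2, a factor of embryonic foregut, airway and squamous epithelium, had 3 and 0 counts in the shControl libraries and was at 109 and 121 CPM in Tmet, a ratio of 1324 (95% counting interval 453 to 6423; adjusted p = 1.17e-06). Sox2 was chosen for naming after its values were seen. Of 29 tested lung and gut transcription factors, 22 were lower and 2 higher, Sox2 and Etv5, against 28.1% and 29.2% of all tested genes. The median log2 change of the 29 was -3.67, or -2.89 with genes at 0 counts in 1 group held at their bound.

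Trp53 was at 4.80 and 4.54 CPM in shControl and 8.04 and 9.83 CPM in Tmet (0.94 ± 0.24, adjusted p = 0.0104), but did not pass with either shControl library left out (adjusted p up to 0.0723). Which exons the Trp53 deletion removes is not stated in the labels, so its level does not check the genotype.

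**Figure D2:**
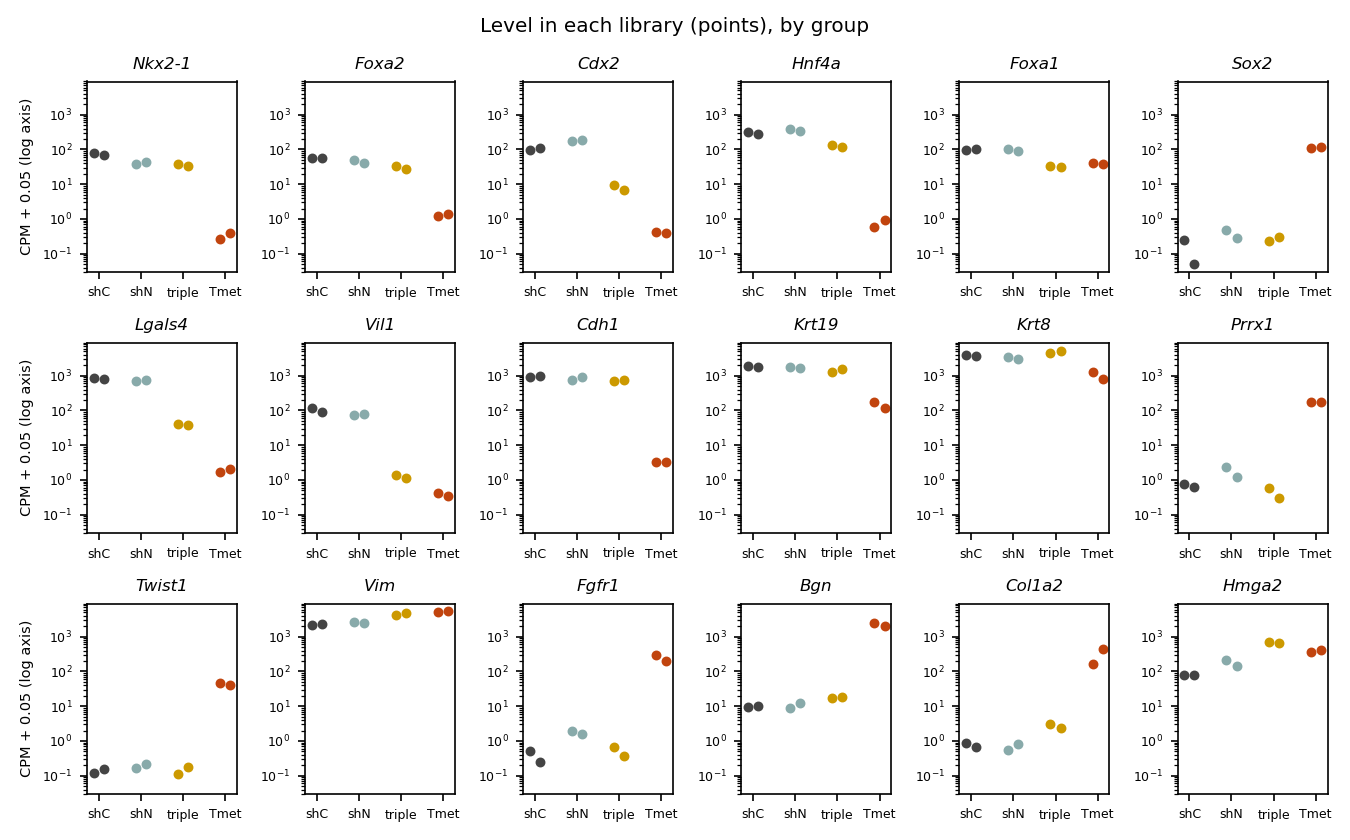
Level of 18 genes in each of the 8 libraries (points, CPM plus 0.05 on a log axis), 2 libraries per group: shC, shControl; shN, the Nkx2-1 shRNA; triple, the triple knockdown; Tmet. In Tmet, Nkx2-1, Foxa2, Cdx2, Hnf4a, Lgals4, Vil1 and Cdh1 lie below every other library, while Sox2, Prrx1, Twist1, Fgfr1, Bgn and Col1a2 lie above every other library.

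The gut genes that the shControl cells expressed were low or at the floor in Tmet. All 24 tested stomach and intestine genes were lower, none was higher, and the median log2 change was -6.84 (-6.19 with genes at 0 counts held at their bound). Summed over the list, levels were 2811 and 2576 CPM in shControl and 64.0 and 22.7 CPM in Tmet. A member with enough counts only in shControl could only come out lower, so the count of 24 was partly set by which could be tested. Lgals4, a galectin of gut epithelium, was at 865 and 811 CPM in shControl and 1.64 and 1.97 CPM in Tmet (-8.85 ± 0.16, adjusted p = 8.81e-08). Cdhr5, a protocadherin that links microvilli, fell from 196 and 175 CPM to 0.219 and 0.151 CPM (-9.92 ± 0.24, adjusted p = 1.73e-07), and Vil1, the villin of microvilli, from 118 and 88.3 CPM to 0.383 and 0.302 CPM (-8.21 ± 0.26, adjusted p = 3.64e-07). Cldn18, a claudin of stomach and lung, fell from 149 and 142 CPM to 0.437 and 0.756 CPM (-7.90 ± 0.21, adjusted p = 1.93e-07). The list members that kept the most signal in Tmet were Krt20, a keratin of gut surface cells, at 36.3 and 7.21 CPM against 176 and 147 CPM in shControl, and the tetraspanin gene Tspan8 at 10.7 and 2.92 CPM against 442 and 443 CPM. Both differed several-fold between the Tmet libraries, yet neither group overlapped the other, as was so for 77.2% of all tested genes. Another 14 genes of the list, among them Tff2, Gkn1 and Dpp4 with 0 counts in these 4 libraries, had too few counts to test.

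Lung markers were scarce in both groups. Of 9 markers of lung epithelium, 3 exceeded 3 counts in both shControl libraries and 2 in both Tmet libraries, and the surfactant genes Sftpa1 and Sftpd had 0 counts in all 4. The surfactant gene Sftpb was at 0.800 and 0.619 CPM in shControl and 0.219 and 0.202 CPM in Tmet (adjusted p = 0.0152), a call lost without either shControl library, without Tmet replicate 2 (adjusted p up to 0.0963 over these) and by DESeq2 (adjusted p = 0.111). Of the defining lung markers, shControl thus had Nkx2-1 but almost no surfactant RNA, and Tmet had neither above 1 CPM. Among genes that alveolar type 2 cells share with other tissues, 7 of 9 tested were lower and 2 higher (median -1.81, or -0.17 without the low-count filter). Ctsh, the lysosomal protease cathepsin H that processes surfactant protein, fell from 233 and 254 CPM to 2.41 and 1.41 CPM (-7.00 ± 0.37, adjusted p = 3.37e-06). Abca3, the lipid pump of lamellar bodies, fell from 256 and 243 CPM to 84.4 and 58.3 CPM (-1.81 ± 0.17, adjusted p = 6.13e-05), whereas Lpcat1, an enzyme of surfactant lipid synthesis, rose (2.03 ± 0.24, adjusted p = 0.000218). Of 9 tested alveolar type 1 and airway genes, 5 were lower and 3 higher. Cav1, the coat protein of caveolae, rose from 108 and 145 CPM to 483 and 419 CPM (1.83 ± 0.17, adjusted p = 6.76e-05). The water channel gene Aqp5 was at 1471 and 1221 CPM in shControl and at 506 and 1018 CPM in Tmet, and its fall (-0.82 ± 0.30, adjusted p = 0.0447) lost its call in 9 of 15 alternative fits (adjusted p up to 0.167).

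Genes of liver and plasma proteins split. Of 13 tested, 6 were lower and 4 higher, with a median of -1.03 that ran from -3.95 to -0.06 over the alternatives. Cyp4f14, a fatty acid hydroxylase, fell from 135 and 117 CPM to 0.0547 and 0.202 CPM (-9.83 ± 0.40, adjusted p = 1.05e-06), and Rbp4, the plasma carrier of retinol, from 251 and 283 CPM to 2.95 and 1.31 CPM (-6.98 ± 0.30, adjusted p = 1.24e-06). Sepp1, the secreted selenium carrier, fell from 1061 and 938 CPM to 3.77 and 2.97 CPM (-8.21 ± 0.23, adjusted p = 2.7e-07). Afp, the fetal counterpart of albumin, went the other way, from 0.867 and 0.258 CPM to 32.8 and 28.4 CPM (5.82 ± 0.50, adjusted p = 4.61e-05), while albumin itself had at most 1 count in these 4 libraries.

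The promoters of the lost gut genes were read for the motif of caudal-type homeobox proteins such as Cdx2. They were read because Cdx2 itself was close to absent in Tmet, with 7 counts in each library. The motif was searched as TTTATNG on both strands, from 250 bases before to 50 bases after the transcription start in the RefSeq table of GRCm38.p6. It occurred in 7 of 22 promoters (31.8%) of the stomach and intestine genes that were lower. The share was 10.9% over all 32851 promoters in the table and 7.92% over promoters of all genes called lower. The 22 promoters cover 20 of the 24 genes, and the rest had none listed under their symbol. The reverse strand reads CNATAAA, so the motif takes in the TATA box when N is T. Promoters of 2 of these genes show both cases, Lgals2 with a match 68 bases before the start that lies outside a TATA box and Krt20 with a match 30 bases before the start that is the TATA box itself. Capitals mark the match, and the windows are chr15:78855480-78855779 and chr11:99438104-99438403, both on the minus strand.
Lgals2: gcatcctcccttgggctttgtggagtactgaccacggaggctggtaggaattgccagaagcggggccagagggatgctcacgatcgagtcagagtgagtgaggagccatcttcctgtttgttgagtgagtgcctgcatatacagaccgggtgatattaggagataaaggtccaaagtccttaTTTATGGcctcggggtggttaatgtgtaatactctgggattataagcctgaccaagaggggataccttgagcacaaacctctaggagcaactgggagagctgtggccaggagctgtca
Krt20: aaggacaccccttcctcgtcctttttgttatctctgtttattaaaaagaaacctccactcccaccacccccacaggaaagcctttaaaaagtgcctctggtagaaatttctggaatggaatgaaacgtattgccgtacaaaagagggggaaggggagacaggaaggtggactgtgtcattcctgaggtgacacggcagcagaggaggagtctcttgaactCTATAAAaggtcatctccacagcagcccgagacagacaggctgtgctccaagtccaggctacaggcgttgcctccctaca
Lgals2, a galectin of gut, fell from 41.7 and 34.9 CPM to 0.383 and 0.252 CPM (-6.89 ± 0.24, adjusted p = 4.75e-07). A motif of the Hnf4 family, searched as CAAAGTCCA on both strands, occurred in 1 of the 22 promoters and in 0.475% of all promoters, and an HNF1 motif in none of the 22 and in 3 of all promoters. A match describes the letters only and does not show that a factor binds there.

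Genes of epithelial adhesion were low in Tmet as well. Cdh1, which encodes E-cadherin, was at 946 and 1005 CPM in shControl and 3.17 and 3.33 CPM in Tmet (-8.23 ± 0.18, adjusted p = 1.11e-07). Lsr, a receptor of tricellular junctions, fell from 128 CPM in each library to 0.984 and 0.907 CPM (-7.07 ± 0.14, adjusted p = 9.58e-08). Krt7 fell from 109 and 124 CPM to 1.2 and 1.06 CPM (-6.68 ± 0.20, adjusted p = 3.33e-07), and Krt23 from 90.7 and 96.0 CPM to 0.219 and 0.202 CPM (-8.75 ± 0.25, adjusted p = 2.92e-07). Within each group the duplicates of these 4 genes lay close together. Crb3, the apical polarity gene, had 1 count in each Tmet library against 5.74 and 5.52 CPM in shControl, a ratio of 107 (95% counting interval 29.2 to 890). In all, 22 of 27 tested junction and keratin genes were lower and 2 higher (median -2.99).

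Some keratin RNA was still abundant in Tmet. Krt8 and Krt18 are the keratin pair of simple epithelia, and Krt8 was at 1311 and 777 CPM there against 4004 and 3765 CPM in shControl (-1.90 ± 0.23, adjusted p = 0.000251). Krt18 was at 1135 and 538 CPM against 1388 and 1350 CPM and did not pass (-0.71 ± 0.29, adjusted p = 0.0691). It was lower past the test by DESeq2 (adjusted p = 0.0253), by limma-voom (0.043), without the low-count filter (0.0244) and without Tmet replicate 1 (2.2e-05). Krt19 fell from 1881 and 1828 CPM to 174 and 119 CPM (-3.66 ± 0.20, adjusted p = 3.79e-06). Epcam, a common epithelial surface marker, had 5 and 4 counts in shControl and 4 and 3 in Tmet, so it was at or near the floor in both. The members that rose, chosen for naming after their values were seen, were the embryonic claudin gene Cldn6, from 1.27 and 2.99 CPM to 315 and 166 CPM (6.77 ± 0.47, adjusted p = 1.4e-05), and the plakophilin gene Pkp3 of desmosomes (3.96 ± 0.49, adjusted p = 0.000308).

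Regulators of the epithelial state were also lower. Of 12 tested, 10 were lower and none higher (median -5.33). Elf3, an ETS factor of epithelium, was at 69.2 and 44.8 CPM in shControl and 0.219 and 0.101 CPM in Tmet (-8.43 ± 0.40, adjusted p = 2.17e-06). The splicing regulator genes Esrp2 and Rbm47 fell from 35.7 and 39.4 CPM to 0.437 and 0.454 CPM (-6.37 ± 0.20, adjusted p = 3.33e-07) and from 105 and 87.3 CPM to 0.765 and 0.554 CPM (-7.18 ± 0.21, adjusted p = 3.02e-07). Spint2, an inhibitor of membrane-bound serine proteases, fell from 174 and 200 CPM to 2.57 and 1.36 CPM (-6.58 ± 0.26, adjusted p = 8.96e-07), and 3 of 6 tested proteases and inhibitors of its kind were lower.

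The E-box CACCTG, which Snail and Zeb proteins are known to bind, was common in the promoters of the junction genes that were lower. On either strand it occurred in 16 of 20 promoters (80%), from 12 of 15 genes. The share was 20.2% over all promoters in the table, 21.3% over promoters of genes called lower and 15.7% over promoters of genes called higher. Only 15 of the 22 lower junction and keratin genes had a promoter listed under their symbol. The same motif occurred in 5 of 22 promoters (22.7%) of the stomach and intestine genes that were lower, and the caudal motif above occurred in none of the 20. Crb3 and Lsr are shown because each window holds 4 matches, marked in capitals. The windows are chr17:57061951-57062250 on the plus strand and chr7:30973420-30973719 on the minus strand.
Crb3: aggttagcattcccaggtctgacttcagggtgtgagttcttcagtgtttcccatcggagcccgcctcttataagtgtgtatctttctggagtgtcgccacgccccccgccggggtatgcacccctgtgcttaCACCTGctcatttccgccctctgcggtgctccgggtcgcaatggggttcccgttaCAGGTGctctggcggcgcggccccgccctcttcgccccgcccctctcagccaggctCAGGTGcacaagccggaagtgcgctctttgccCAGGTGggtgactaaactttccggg
Lsr: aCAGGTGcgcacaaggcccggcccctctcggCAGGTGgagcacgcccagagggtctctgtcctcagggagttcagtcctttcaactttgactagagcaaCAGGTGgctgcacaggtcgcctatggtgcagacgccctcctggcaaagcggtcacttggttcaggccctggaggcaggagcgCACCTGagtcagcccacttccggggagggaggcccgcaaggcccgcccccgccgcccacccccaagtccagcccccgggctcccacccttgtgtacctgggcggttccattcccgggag
The nearest match to the start in Crb3 begins 7 bases before it, and in Lsr 69 bases before it. Promoters of Cdh1 and Esrp2 were not available here, so they were not searched. These promoter lists were drawn up after the expression values were known, and the shares are given without a test. No share was taken over junction genes that were not lower, so the 80% cannot be tied to the fall. As above, a match describes the letters only.

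Among transcription factors of the mesenchymal transition, a few came on from almost nothing. Prrx1, a homeobox factor of mesenchyme, was at 0.734 and 0.568 CPM in shControl and 169 and 179 CPM in Tmet (8.07 ± 0.31, adjusted p = 8.01e-07). Twist1 had 1 and 2 counts in shControl and was at 46.7 and 39.7 CPM in Tmet, a ratio of 494 (95% counting interval 169 to 2396; adjusted p = 6.09e-07). Snai1 was at 0.267 and 0.206 CPM in shControl and 11.4 and 25.4 CPM in Tmet (6.26 ± 0.55, adjusted p = 4.89e-05). Zeb1 and Zeb2 were already present in shControl, at 41.2 and 48.3 CPM and at 15.2 and 17.7 CPM, and rose to 103 and 76.3 CPM (1.00 ± 0.18, adjusted p = 0.00199) and to 56.1 and 57.0 CPM (1.78 ± 0.14, adjusted p = 2.46e-05). Tbx3, a T-box factor, had 0 counts in shControl and was at 3.17 and 12.9 CPM in Tmet, at least 47.2-fold higher. Their relatives did not all follow: Snai2 did not pass (0.35 ± 0.20, adjusted p = 0.176), and Twist2 (-0.68 ± 0.19, adjusted p = 0.0156) and Snai3 (-0.89 ± 0.28, adjusted p = 0.0267) were lower. Of 15 tested factors, 8 were higher and 2 lower (median 0.84, or 0.41 without Tmet replicate 2).

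RNA of common mesenchymal markers was present in both lines, and most markers tested were higher in Tmet. Vim, the vimentin filament gene, was at 2191 and 2274 CPM in shControl and 5161 and 5640 CPM in Tmet (1.27 ± 0.11, adjusted p = 5.28e-05). Cdh2, which encodes N-cadherin, rose from 118 and 131 CPM to 283 and 326 CPM (1.29 ± 0.12, adjusted p = 6.08e-05), a change far smaller than that of Cdh1. Fn1 (fibronectin, 1.02 ± 0.13, adjusted p = 0.000341), Lgals1 (galectin-1, 1.63 ± 0.12, adjusted p = 1.77e-05) and Sparc (a matricellular protein, 1.18 ± 0.10, adjusted p = 3.66e-05) moved by similar amounts. Ddr2, a collagen-activated receptor kinase, rose from 0.400 and 0.206 CPM to 50.5 and 62.3 CPM (7.56 ± 0.35, adjusted p = 1.94e-06). Altogether 16 of 22 tested mesenchymal genes were higher and 3 lower (median 1.36). The 3 that fell were S100a4, a calcium-binding protein often used as a fibroblast marker, from 1321 and 1503 CPM to 146 and 406 CPM (-2.35 ± 0.44, adjusted p = 0.00237), Nt5e (-3.55 ± 0.32, adjusted p = 6.04e-05) and Cnn2 (-1.15 ± 0.34, adjusted p = 0.02). The call of Cnn2 was lost without either shControl library and in a fit of the 4 libraries alone (adjusted p up to 0.0775).

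Markers used for fibroblasts moved with these genes. All 7 tested of 13 listed fibroblast markers were higher. Their summed level over the list was 7.80 and 6.25 CPM in shControl and 274 and 904 CPM in Tmet, mostly Col1a1 and Col1a2. Of the 13, 5 exceeded 3 counts in both shControl libraries and 8 in both Tmet libraries. A marker with enough counts only in Tmet could only come out higher, so the count of 7 was partly set by which could be tested. All 3 markers at 20 CPM or more in Tmet were over 2-fold higher in Tmet replicate 2 than in replicate 1. Acta2, at 7.05 and 79.3 CPM in Tmet, lost its call by limma-voom (adjusted p = 0.0765) and without shControl replicate 2. The fibroblast markers Lum and Tcf21 had 0 counts in all 4 libraries, and Dcn, Postn and Fap had 1, 0 and 1 counts in shControl and 36, 4 and 3 in Tmet. Whether stromal cells contributed to the mesenchymal and matrix results was not tested. Leukocyte markers summed to 34.3 and 30.8 CPM in shControl and 39.3 and 31.3 CPM in Tmet. Most of this was Cd14, at 30.9 and 27.0 CPM in shControl and 33.8 and 24.6 CPM in Tmet (adjusted p = 0.947). Cd68, a lysosomal protein of macrophages, was at 1.07 and 1.81 CPM in shControl and 2.79 and 3.28 CPM in Tmet (1.06 ± 0.35, adjusted p = 0.0327), a difference that did not pass in 8 of 15 alternatives (adjusted p up to 0.196). Ptprc, the pan-leukocyte marker, had 0 counts in shControl and 3 and 5 in Tmet. Endothelial markers summed to 7.87 and 7.79 CPM in shControl and 16.9 and 17.8 CPM in Tmet.

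Matrix genes changed in both directions, more of them upward. Col1a2, a chain of fibrillar collagen, was at 0.800 and 0.619 CPM in shControl and 164 and 453 CPM in Tmet (8.77 ± 0.62, adjusted p = 1.55e-05). Fbn1, the fibrillin of microfibrils, rose from 1.13 and 0.465 CPM to 238 and 287 CPM (8.41 ± 0.37, adjusted p = 1.38e-06). Tnc (tenascin C), Vcan (versican) and Col8a1 rose from at most 2.32 CPM to between 67.3 and 346 CPM, with log2 changes of 8.19 ± 0.23, 7.34 ± 0.28 and 4.96 ± 0.20. Bgn, the small proteoglycan biglycan, rose from 9.34 and 10.2 CPM to 2554 and 1983 CPM (7.86 ± 0.23, adjusted p = 2.92e-07) and was the most counted of the genes that rose above 4-fold. Lox, the collagen crosslinking oxidase, had 0 counts in shControl and 29 and 90 in Tmet, at least 17.9-fold higher. Genes of basement membrane split: Nid1, the linker protein nidogen, rose from 8.27 and 7.23 CPM to 50.4 and 170 CPM (3.83 ± 0.53, adjusted p = 0.000528), whereas Lama5, a laminin of epithelial basement membrane, fell from 839 and 969 CPM to 136 and 112 CPM (-2.87 ± 0.14, adjusted p = 2.34e-06), and Col4a1, its collagen, from 1079 and 977 CPM to 278 and 333 CPM (-1.75 ± 0.13, adjusted p = 2.07e-05). Thbs1, an abundant matricellular protein, fell from 2875 and 3380 CPM to 528 and 1073 CPM (-1.97 ± 0.42, adjusted p = 0.00447). Of 57 tested matrix genes, 35 were higher and 14 lower (median 1.34, with a range of 1.29 to 2.22 over the alternatives). Spp1 (osteopontin), at 1061 and 1444 CPM in shControl and 3451 and 1602 CPM in Tmet, did not pass (1.01 ± 0.42, adjusted p = 0.0703), though it did without Tmet replicate 2 (adjusted p = 0.00507) and without the low-count filter (adjusted p = 0.0286).

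Proteases, invadopodia genes and integrins changed in both directions. Mmp14, the membrane-anchored collagenase, was at 5.87 and 8.26 CPM in shControl and 93.7 and 122 CPM in Tmet (3.92 ± 0.31, adjusted p = 2.84e-05), and its substrate Mmp2 had 0 counts in shControl and 29 and 30 in Tmet, at least 8.86-fold higher. Timp1, an inhibitor of metalloproteinases, rose from 7.0 and 6.97 CPM to 110 and 215 CPM (4.54 ± 0.33, adjusted p = 1.85e-05), whereas Mmp28 fell from 24.7 and 18.2 CPM to 0.492 and 0.202 CPM (-5.94 ± 0.32, adjusted p = 3.96e-06). In this list 15 of 28 tested were higher and 6 lower. Of 27 invadopodia and actin genes, 12 were higher and 8 lower. The actin-assembly gene Enah rose from 3.27 and 2.53 CPM to 65.9 and 79.7 CPM (4.66 ± 0.19, adjusted p = 1.04e-06) and the bundling gene Fscn1 from 110 and 144 CPM to 694 and 895 CPM (2.64 ± 0.17, adjusted p = 1.06e-05), while the microvillus bundler Pls1 fell (-5.86 ± 0.37, adjusted p = 8.59e-06). Sh3pxd2a, the scaffold Tks5 of invadopodia, was at 154 and 169 CPM in shControl and 182 and 224 CPM in Tmet and did not pass (0.33 ± 0.14, adjusted p = 0.0762), though it did without Tmet replicate 1 (adjusted p = 0.0096). Integrins were more often lower (9 of 15) than higher (5 of 15). The collagen receptor Itga1 fell from 86.2 and 120 CPM to 0.437 and 0.554 CPM (-7.67 ± 0.40, adjusted p = 3.34e-06), the fibronectin receptor Itga5 rose (1.37 ± 0.12, adjusted p = 5.5e-05), and Itgb7, an integrin of leukocytes that binds mucosal vessels, rose from 0.467 and 0.413 CPM to 63.0 and 72.6 CPM (7.25 ± 0.23, adjusted p = 3.64e-07).

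Embryonic genes were higher in Tmet. Hmga2, an architectural chromatin protein of embryonic tissue, was at 78.6 and 80.3 CPM in shControl and 352 and 411 CPM in Tmet (2.26 ± 0.18, adjusted p = 2.76e-05). The RNA-binding protein gene Igf2bp3 rose from 1.73 and 1.08 CPM to 20.7 and 18.5 CPM (3.81 ± 0.29, adjusted p = 2.5e-05), and Igf2bp2 from 6.6 and 7.02 CPM to 50.7 and 41.3 CPM (2.75 ± 0.25, adjusted p = 5.73e-05). In total, 13 of 18 tested oncofetal and imprinted genes were higher and 4 lower (median 2.85). Imprinted Grb10, an adaptor of the insulin receptor, had 1 and 3 counts in shControl and was at 11.7 and 61.9 CPM in Tmet (adjusted p = 0.000524), and imprinted Snrpn fell (-3.11 ± 0.48, adjusted p = 0.000964). Of 39 Hox genes, 8 had enough counts to test. Hoxb3, Hoxb4, Hoxb5 and Hoxb8 were higher and Hoxa13, with 29 counts in shControl and 0 in Tmet, was at least 5.36-fold lower. The levels were low and lay far apart between the Tmet replicates. Hoxb3 was at 1.09 and 5.34 CPM, Hoxb4 at 0.875 and 4.03 CPM and Hoxb5 at 0.656 and 3.07 CPM, against at most 0.361 CPM in shControl. Hoxb3 did not pass when shControl replicate 1 was left out (adjusted p = 0.0722).

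Receptor tyrosine kinases changed in both directions. Fgfr1, a receptor of fibroblast growth factors, was at 0.467 and 0.206 CPM in shControl and 293 and 195 CPM in Tmet (9.54 ± 0.38, adjusted p = 8.61e-07). Pdgfrb had 0 counts in shControl and 128 and 98 in Tmet, at least 34.0-fold higher, and Egfr rose from 1.33 and 1.03 CPM to 19.5 and 19.8 CPM (4.06 ± 0.25, adjusted p = 8.18e-06). Axl, a receptor linked to mesenchymal states, rose from 368 and 500 CPM to 1124 and 1216 CPM (1.43 ± 0.28, adjusted p = 0.00329). In contrast, Erbb3 fell from 67.5 and 64.1 CPM to 1.48 and 0.857 CPM (-5.82 ± 0.25, adjusted p = 1.31e-06), its partner Erbb2 from 118 and 119 CPM to 39.8 and 38.3 CPM (-1.60 ± 0.10, adjusted p = 7.57e-06), and the hepatocyte growth factor receptor gene Met by less (-0.61 ± 0.10, adjusted p = 0.00111). Of 22 tested genes in this list, 11 were higher and 5 lower.

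Targets of the RAS to ERK pathway did not move as 1 block. Of 26 tested, 14 were higher and 3 lower (median 0.55). The ETS factor Etv1 had 2 counts in each shControl library and was at 23.2 and 12.2 CPM in Tmet (7.16 ± 0.53, adjusted p = 2.06e-05), and the AP-1 subunit gene Fosl1 rose from 10.8 and 10.9 CPM to 135 and 243 CPM (4.12 ± 0.31, adjusted p = 2.3e-05). The feedback inhibitor Spry1, in contrast, fell from 68.8 and 64.8 CPM to 0.601 and 0.605 CPM (-6.77 ± 0.20, adjusted p = 3.02e-07), and Fos, another AP-1 subunit gene, fell (-4.16 ± 0.31, adjusted p = 1.93e-05). Dusp6, the ERK phosphatase, was at 122 and 88.7 CPM in shControl and 105 and 80.4 CPM in Tmet and did not pass (-0.19 ± 0.24, adjusted p = 0.529).

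Signalling through TGF-beta, Wnt and Hippo components changed gene by gene. For TGF-beta, 21 of 42 tested genes were higher and 10 lower. The ligand genes Tgfb1 (1.55 ± 0.23, adjusted p = 0.000695) and Inhba (2.93 ± 0.26, adjusted p = 5.2e-05) rose, as did the inhibitory Smad7, from 23.8 and 23.1 CPM to 122 and 118 CPM (2.35 ± 0.11, adjusted p = 2.4e-06), while the receptor gene Tgfbr2 fell from 286 and 358 CPM to 60.7 and 60.9 CPM (-2.40 ± 0.13, adjusted p = 4.29e-06). Gdf6, a bone morphogenetic protein, was at 33.5 and 40.1 CPM in shControl and had 2 and 1 counts in Tmet, a ratio of 473 (95% counting interval 162 to 2298). For Wnt, 14 of 30 tested genes were higher and 7 lower. Wnt5a, a noncanonical ligand, had 0 counts in shControl and 188 and 125 in Tmet, at least 47.0-fold higher, and its receptor Ror2 had 0 counts in shControl and 42 and 90 in Tmet, at least 19.8-fold higher, a call that DESeq2 did not make (adjusted p = 0.129). Rnf43, the ubiquitin ligase that removes Wnt receptors, fell from 36.3 and 31.7 CPM to 0.164 and 0.454 CPM (-6.73 ± 0.32, adjusted p = 2.16e-06). Among YAP and TEAD targets 10 of 21 were higher and 3 lower, with Ankrd1 higher (1.43 ± 0.11, adjusted p = 2.67e-05) and Ctgf not past the test (-0.20 ± 0.33, adjusted p = 0.631). Axon guidance genes were more often lower, 22 of 42 against 9 higher: Sema3e fell from 124 and 116 CPM to 10.7 and 9.73 CPM (-3.55 ± 0.13, adjusted p = 5.37e-07), while the semaphorin receptor gene Nrp2 rose from 1.27 and 1.65 CPM to 330 and 307 CPM (7.75 ± 0.21, adjusted p = 2.53e-07).

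**Figure D3:**
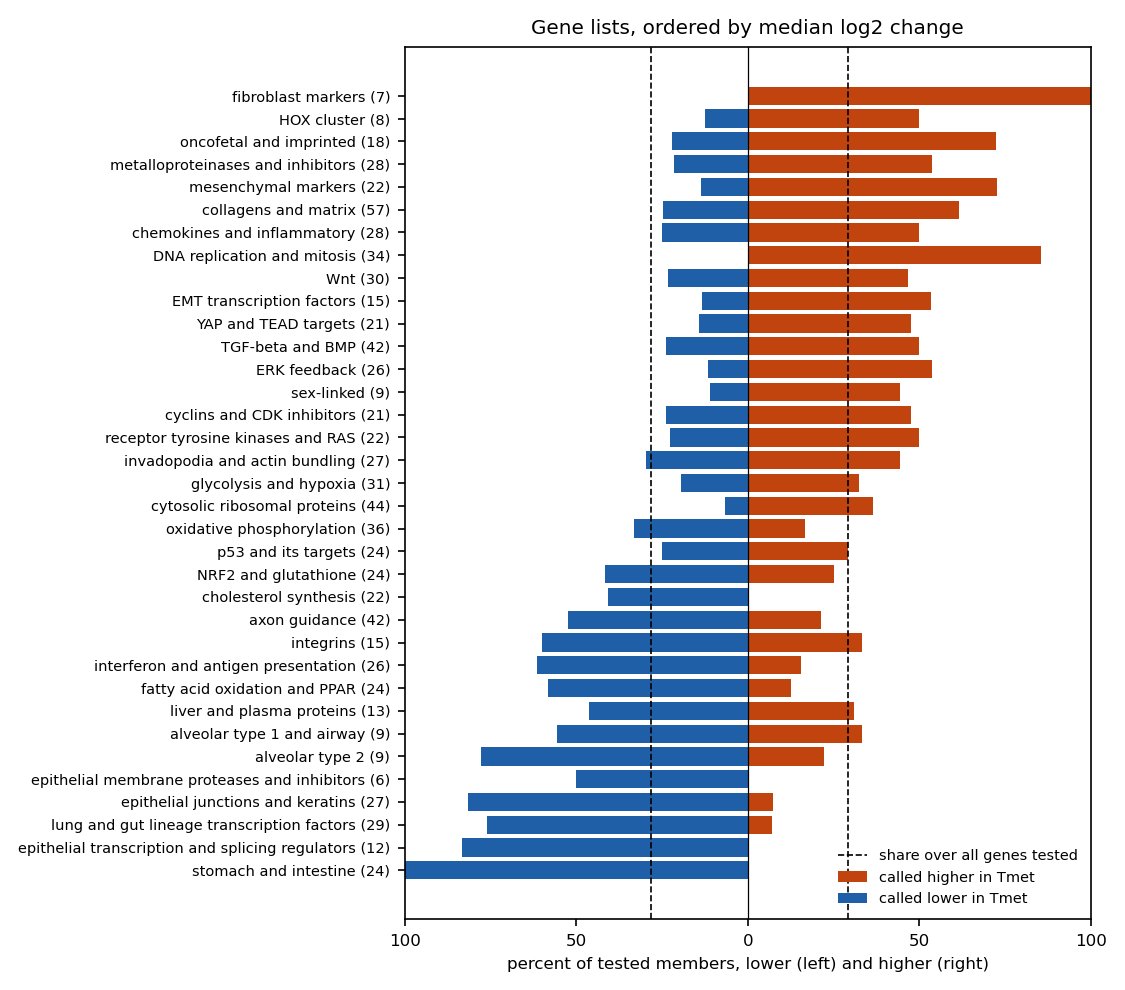
Share of tested members called higher (right) and lower (left) in Tmet, for each list with at least 5 tested members (number in brackets), ordered by median log2 change. Dashed lines mark the shares over all genes tested, 29.2% higher and 28.1% lower. All 24 stomach and intestine genes fall on the left and all 7 fibroblast markers on the right. Members with enough counts only in shControl could fall only on the left, and those with enough only in Tmet only on the right.

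Replication and mitosis genes were modestly and broadly higher. Of 34 tested, 29 were higher and none lower, with a median log2 change of 1.04. Mcm7, a subunit of the replicative helicase, was at 159 and 167 CPM in shControl and 371 and 405 CPM in Tmet (1.25 ± 0.12, adjusted p = 9.81e-05), the mitotic kinesin gene Kif20a rose from 119 and 120 CPM to 432 and 523 CPM (2.00 ± 0.17, adjusted p = 3.7e-05), and the S-phase factor E2f1 rose (1.57 ± 0.16, adjusted p = 0.000102). Mki67, the proliferation marker, was at 405 and 453 CPM in shControl and 463 and 697 CPM in Tmet and did not pass (0.43 ± 0.19, adjusted p = 0.079). The D-type cyclins diverged: Ccnd1 rose from 326 and 411 CPM to 923 and 1115 CPM (1.47 ± 0.19, adjusted p = 0.000345) and Ccnd2 fell from 278 and 397 CPM to 30.2 and 24.2 CPM (-3.63 ± 0.20, adjusted p = 4.34e-06). Among inhibitors, Cdkn1b (p27) fell (-1.69 ± 0.16, adjusted p = 6.64e-05) and Cdkn2a rose (1.63 ± 0.20, adjusted p = 0.000259). Of 24 tested p53 pathway genes, 7 were higher and 6 lower, with a median of -0.10 that changed sign under some alternatives (-0.28 to 0.06). The pathway gene Perp, which is also a desmosome component, fell from 53.5 and 48.8 CPM to 3.23 and 3.73 CPM (-3.87 ± 0.15, adjusted p = 7.19e-07).

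Metabolic genes moved less than identity genes. The respiratory chain list had 6 of 36 members higher and 12 lower, none of them above 2-fold (median -0.08, with a range of -0.12 to -0.04), and 16 of 44 ribosomal protein genes were higher and 3 lower (median 0.22, with a range of 0.08 to 0.27). For glycolysis and hypoxia, 10 of 31 were higher and 6 lower, with a median of 0.31 that ran from -0.03 to 0.39 over the alternatives. The lactate exporter gene Slc16a3 rose from 1.67 and 2.27 CPM to 83.1 and 51.1 CPM (5.07 ± 0.37, adjusted p = 1.93e-05) and Pgk1, a glycolytic kinase, from 644 and 597 CPM to 1800 and 1846 CPM (1.56 ± 0.10, adjusted p = 1.09e-05), while hexokinase gene Hk1 fell (-1.10 ± 0.11, adjusted p = 9.31e-05). Fatty acid oxidation and PPAR genes were more often lower, 14 of 24 against 3 higher. Pparg, the nuclear receptor of fat storage, fell (-1.99 ± 0.11, adjusted p = 4.16e-06). The lipid droplet gene Plin2 rose from 189 and 183 CPM to 669 and 626 CPM (1.80 ± 0.10, adjusted p = 4.82e-06). No cholesterol synthesis gene was higher and 9 of 22 were lower (median -0.41, with a range of -0.74 to -0.19). Of 24 glutathione and NRF2 target genes, 10 were lower and 6 higher: the transporter gene Abcc3 fell from 170 and 168 CPM to 0.601 and 0.857 CPM (-7.84 ± 0.16, adjusted p = 9.69e-08) and Hmox1, heme oxygenase, rose (2.42 ± 0.23, adjusted p = 7.88e-05).

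Interferon and antigen presentation genes were more often lower, and cytokine genes diverged. Of 26 tested interferon genes, 16 were lower and 4 higher (median -0.75, with a range of -1.40 to -0.44 over the alternatives). The RNA sensor gene Ifih1 fell from 12.5 and 13.0 CPM to 0.601 and 0.0504 CPM (-5.30 ± 0.57, adjusted p = 0.000143), the class I heavy chain gene H2-K1 from 45.1 and 54.5 CPM to 13.3 and 5.70 CPM (-2.39 ± 0.35, adjusted p = 0.000734), and the checkpoint ligand gene Cd274 from 21.9 and 17.1 CPM to 2.52 and 2.47 CPM (-2.96 ± 0.34, adjusted p = 0.00019). The light chain gene B2m did not pass (0.33 ± 0.14, adjusted p = 0.0728), except without Tmet replicate 2 (adjusted p = 0.00323), and Ifitm3, an antiviral membrane protein, had 1 count in shControl against 25.5 and 16.8 CPM in Tmet, a ratio of 721 (95% counting interval 129 to 28517). Of 28 chemokine and inflammatory genes, 14 were higher and 7 lower. The prostaglandin synthase gene Ptgs2 rose from 51.9 and 40.2 CPM to 508 and 726 CPM (3.75 ± 0.30, adjusted p = 2.8e-05), the monocyte chemokine gene Ccl2 from 3.80 and 5.21 CPM to 75.2 and 83.1 CPM (4.12 ± 0.35, adjusted p = 4.04e-05) and the macrophage growth factor gene Csf1 from 147 and 184 CPM to 527 and 904 CPM (2.11 ± 0.27, adjusted p = 0.000394). The adhesion receptor gene Icam1 fell from 56.3 and 69.4 CPM to 0.437 and 0.403 CPM (-7.20 ± 0.22, adjusted p = 3.33e-07), and the interleukin-1 receptor antagonist gene Il1rn fell from 58.6 and 61.7 CPM to 0.164 and 0.302 CPM (-7.95 ± 0.23, adjusted p = 2.92e-07).

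The genes with the largest fitted rises had 0 counts in both shControl libraries, so their order is not one of measured folds. Only a lower bound, against 3 counts per library, can be given for them, and genes with a few shControl counts such as Sox2 have higher measured ratios. Kctd15, a neural crest regulator, was at 21.9 and 21.3 CPM in Tmet, at least 123-fold higher, and Apbb1ip, an integrin adaptor of blood cells, at 18.8 and 25.8 CPM, at least 128-fold higher. Smoc2, a matricellular protein, at 13.1 and 28.7 CPM, and Gas1, a growth arrest protein that also binds hedgehog ligands, at 28.9 and 11 CPM, were at least 122-fold and 112-fold higher. The calcium channel gene Cacna1c (at least 102-fold) and the receptor activity modifier Ramp3 (at least 101-fold) also had 0 counts in shControl. Klra15 was at 25.7 CPM in both Tmet libraries, but it belongs to a family of near-identical receptors and its value is uncertain. Among abundant genes, the tetraspanin-like Tm4sf1 rose from 6.07 and 8.26 CPM to 763 and 959 CPM (6.90 ± 0.31, adjusted p = 1.63e-06), the polyamine enzyme gene Odc1 from 168 and 152 CPM to 782 and 1216 CPM (2.64 ± 0.24, adjusted p = 5.29e-05) and the lysosomal protease gene Ctsl from 275 and 248 CPM to 1139 and 990 CPM (2.02 ± 0.11, adjusted p = 4.45e-06).

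The largest fitted falls were of genes with 0 to 3 counts over both Tmet libraries, apart from Cdhr5 above. Ildr1, a tricellular junction protein, was at 35.2 and 34.5 CPM in shControl and had 0 and 1 counts in Tmet, a ratio of 1327 (95% counting interval 238 to 52452). Dmbt1, a secreted mucosal scavenger protein, was at 81.4 and 97.2 CPM and had 1 and 2 counts, a ratio of 1148 (392 to 5569). Galnt3, which starts mucin-type glycosylation, had a ratio of 1230 (220 to 48640). Cst9, Gprin3, Arhgef16, Zfp385b, Vip and Nr1i2, the xenobiotic receptor PXR, had 0 counts in Tmet and were at least 92.3-, 62.5-, 59.0-, 54.5-, 45.1- and 44.0-fold lower. Among abundant genes, Aplp2, a relative of the amyloid precursor protein, fell from 1089 and 938 CPM to 217 and 219 CPM (-2.22 ± 0.11, adjusted p = 2.87e-06), the surface protein gene Cd24a from 926 and 925 CPM to 219 and 229 CPM (-2.05 ± 0.15, adjusted p = 1.72e-05) and the mitochondrial carrier gene Ucp2 from 927 and 881 CPM to 227 and 164 CPM (-2.21 ± 0.16, adjusted p = 1.93e-05).

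Setting Tmet beside the triple knockdown asks which of these levels were also present in non-metastatic cells with shRNAs against the 3 factors. There, Nkx2-1 was still at 38.1 and 34.0 CPM, Foxa2 at 34.1 and 28.2 CPM and Cdx2 at 9.41 and 6.80 CPM, all above their Tmet levels. Both comparisons share the Tmet libraries, so only levels are given side by side. Between Tmet and the triple knockdown 48.1% of tested genes were called. Foxa1, at 33.9 and 31.1 CPM in the triple knockdown, did not differ past the test from its Tmet level (adjusted p = 0.0911), nor did Vim, at 4196 and 4743 CPM (adjusted p = 0.0761). Hmga2 was higher in the triple knockdown, at 703 and 658 CPM, than in Tmet (adjusted p = 0.00494). Lgals4 and Vil1 were low in the triple knockdown, at 40.6 and 38.4 CPM and at 1.39 and 1.09 CPM, yet lower still in Tmet (adjusted p = 5.47e-07 and 0.00431). Cdh1 (682 and 754 CPM), Lsr (72.5 and 72.2 CPM), Elf3 (68.8 and 55.0 CPM) and Gata6 (44.7 CPM in both) were far above their Tmet levels in the triple knockdown, and Prrx1, Twist1, Fgfr1, Tnc and Fbn1 were at 1.27 CPM or below there. Krt7 moved in opposite directions: it was at 1165 and 1111 CPM in the triple knockdown, 109 and 124 CPM in shControl and 1.2 and 1.06 CPM in Tmet.

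Sex-linked genes differed as between female and male cells. Xist, the RNA that silences 1 X chromosome in females, was at 1405 and 1396 CPM in shControl and 4.37 and 4.79 CPM in Tmet (-8.25 ± 0.17, adjusted p = 9.58e-08), and it was at 1488 and 1317 CPM in the triple knockdown. The Y-linked genes Ddx3y (105 and 110 CPM), Eif2s3y (125 and 102 CPM), Kdm5d (90.5 and 60.7 CPM) and Uty (68.5 and 47.7 CPM) were present in Tmet and at 0.400 CPM or below in shControl. Sex-linked RNA therefore moves with metastatic history in this comparison, and the parts of sex and metastatic history in any other gene's difference cannot be told apart.

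Changes also followed chromosomes. Over the genes placed on chromosomes by RefSeq symbol, the median log2 change was 0.76 on chromosome 18, where 61.5% of 361 tested genes were higher, and 0.52 on chromosome 13, where 49.8% of 500 were higher, against 29.2% over all genes. It was -0.40 on chromosome 10, where 44.1% of 622 were lower, and -0.31 on chromosome 9, where 41.6% of 738 were lower, against 28.1% over all genes. These medians kept their sign with DESeq2's size factors, with at least 1 CPM in 2 libraries and without each of the 4 libraries compared, the 6 alternatives run for chromosomes, with ranges of 0.70 to 0.83, 0.47 to 0.55, -0.44 to -0.35 and -0.36 to -0.28. On the X chromosome the median was 0.38 (0.31 to 0.43 over the same alternatives), and 45.7% of 420 tested genes were higher. Copy number was not measured, and its part in these medians was not tested.

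A run of neighbouring genes on chromosome 5 rose together, several of them to high levels. It was singled out after its values were seen, from 3 abundant rises that lie near one another: Sri, a calcium-binding protein, from 177 and 179 CPM to 1531 and 1312 CPM (2.99 ± 0.12, adjusted p = 8.01e-07), Dbf4, the activator of the replication kinase Cdc7, from 49.7 and 53.6 CPM to 1869 and 1893 CPM (5.19 ± 0.18, adjusted p = 4.93e-07), and Abcb1b, a multidrug efflux pump, from 57.3 and 57.0 CPM to 915 and 1289 CPM (4.27 ± 0.20, adjusted p = 1.87e-06). Between and beside them in RefSeq order, Adam22 (4.22 ± 0.24) and Slc25a40, at 14.4 and 12.2 CPM in shControl and 443 and 319 CPM in Tmet (4.84), rose as well. Zfp804b, next to Sri, had 2 counts in shControl and 967 in Tmet, a ratio of 436 (95% counting interval 120 to 3604). Rundc3b (0.52, adjusted p = 0.0147) and Abcb1a (1.44, adjusted p = 0.00717), which lie between Slc25a40 and Abcb1b, rose less. Their calls were lost without either shControl library for Rundc3b, and in a fit of the 4 libraries alone, and without shControl replicate 2 for Abcb1a (adjusted p up to 0.0943 and 0.0593). Beyond Abcb1b, Abcb4 and Dmtf1 did not pass (adjusted p = 0.139 and 0.106), Abcb4 except without Tmet replicate 1 (adjusted p = 0.0191), and Crot was lower (-0.97, adjusted p = 0.0161), though not when shControl replicate 1 was left out or in a fit of the 4 libraries alone (adjusted p up to 0.0843). The pumps Abcb1a and Abcb1b are close copies, so the split of their reads is uncertain. This run was not the only one. Over 9 neighbouring tested genes the median log2 change reached 4.22 here, 5.76 on chromosome 6, 4.31 on chromosome 3 and 4.26 on chromosome 7. The lowest such median was -4.75, on chromosome 15. The chromosome 6 run holds genes with almost no counts in shControl, such as Sgce and Ppp1r9a.

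**Figure D4:**
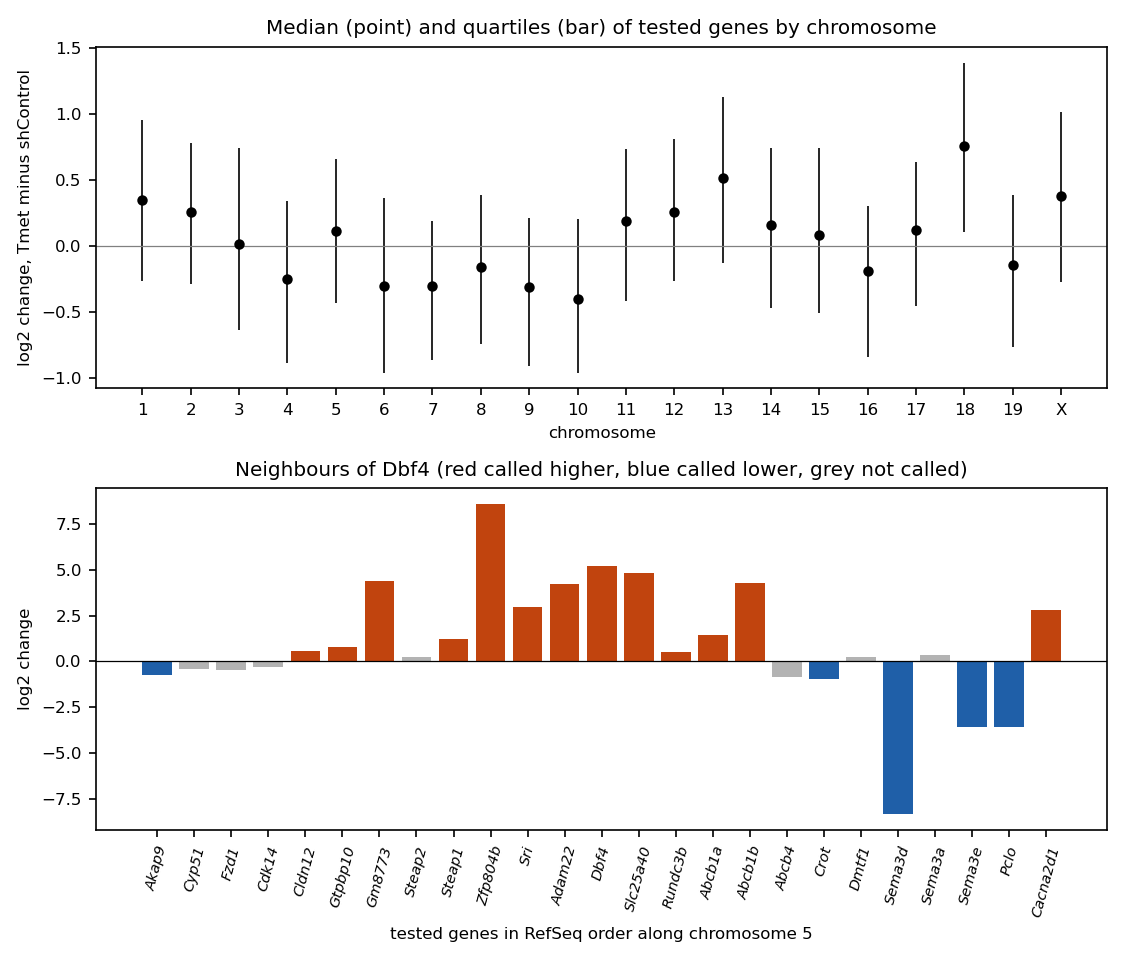
Top, the median (point) and quartiles (bar) of the fitted log2 change of tested genes on each autosome and the X chromosome, highest on chromosome 18 (0.76) and lowest on chromosome 10 (-0.40). Bottom, the fitted log2 change of 25 tested genes in RefSeq order around Dbf4 on chromosome 5, where the bars of Sri, Adam22, Dbf4, Slc25a40 and Abcb1b stand at 2.99 to 5.19. The taller bar of Zfp804b and those of other genes with almost no counts in 1 group are not fold estimates.

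The Tmet duplicates differed from each other more than the shControl duplicates did. Among genes at 20 CPM or more in either library of a group, 373 of 7944 (4.70%) were over 2-fold apart between the Tmet libraries and 8 of 7967 (0.1%) between the shControl libraries. Of the 373, 118 were higher in replicate 2 and 255 in replicate 1. The genes named next were chosen for this difference after their values were seen. Of 18 mesenchymal markers at that level, 6 were over 2-fold higher in replicate 2 and none in replicate 1, and of 43 matrix genes 7 and 3 were. Among genes high in replicate 2, Acta2, smooth muscle actin, was at 7.05 CPM in replicate 1 and 79.3 CPM in replicate 2, Tagln, an actin-binding protein, at 2.13 and 27.5 CPM, Fst, the activin antagonist, at 7.60 and 59.8 CPM, and Col5a2, a fibrillar collagen chain, at 20.2 and 149 CPM. Among genes high in replicate 1, Trib3, a pseudokinase induced by stress, was at 72.4 and 13.3 CPM, Chac1, a glutathione-degrading enzyme, at 83.4 and 24.8 CPM, and Ndrg1, a hypoxia-induced gene, at 204 and 30.8 CPM. For such genes the group mean describes neither library. The call of Tagln against shControl (adjusted p = 0.0289) was lost without Tmet replicate 2 (adjusted p = 0.75), and that of Trib3 (adjusted p = 0.0186) without Tmet replicate 1 (adjusted p = 0.101). Both calls were also lost by limma-voom and without either shControl library, and that of Tagln in a fit of the 4 libraries alone and with a replicate block. Of list members at 20 CPM or more in Tmet, none of 6 lineage factors was over 2-fold apart, 1 of 10 junction and keratin genes was (Krt18), and the 1 stomach and intestine gene at that level, Krt20, was.

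**Figure D5:**
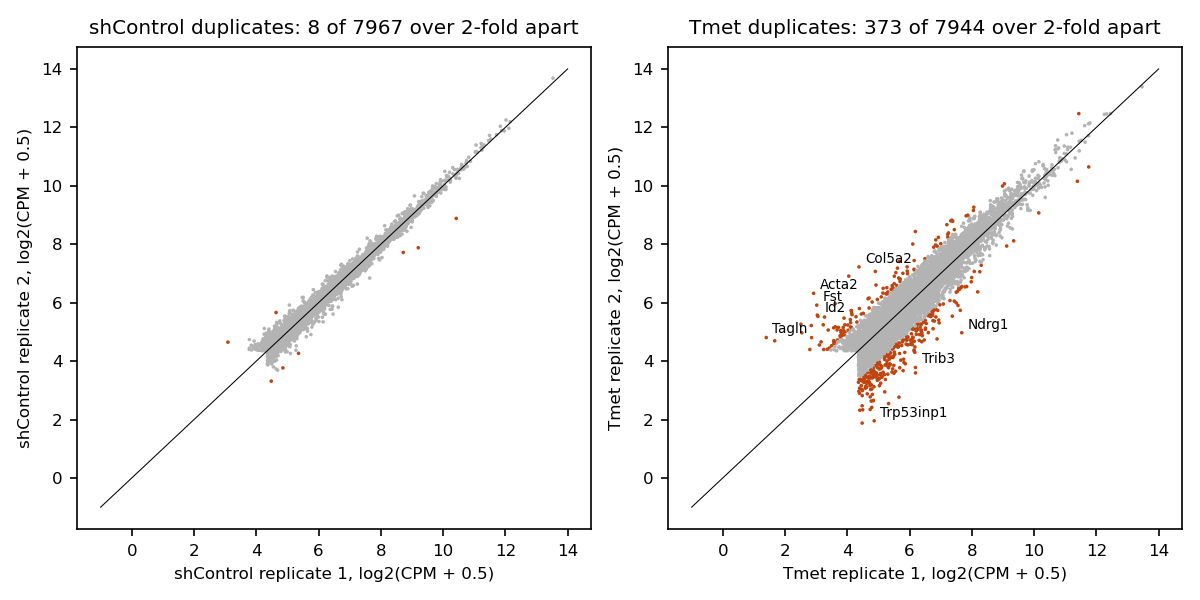
Replicate 2 against replicate 1, as log2 of CPM plus 0.5, for genes at 20 CPM or more in either library, left for shControl and right for Tmet. Points over 2-fold apart are red: 8 of 7967 genes in shControl and 373 of 7944 in Tmet, with Acta2, Tagln and Fst above the diagonal and Trp53inp1, Ndrg1 and Trib3 below it.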

How the data were processed

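Polyadenylated RNA was sequenced as single-end 45 nt reads from TruSeq libraries, per the labels' protocols. The authors deposited estimated counts per gene in 1 table, and RSEM 1.2.12, Bowtie 1.0.1 and the build mm9 are named in the submitters' processing notes. Because RSEM apportions ambiguous reads, values of near-identical genes are uncertain. The strand setting and annotation are not given here.

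After rounding of the estimated counts, genes passing edgeR's filterByExpr (minimum count 10, minimum total 15) were fitted in edgeR 4.0.16 (R 4.3.3) with TMM factors, all 8 libraries in 1 quasi-likelihood fit by group and no covariate, with 4 residual degrees of freedom. The two-sided contrast of Tmet with shControl was adjusted by Benjamini-Hochberg over 13318 genes. The script was tested on simulated data. Alternatives used limma 3.58.1, DESeq2 1.42.0, other filters and scalings, and each library left out. Counting intervals are exact at 95% and, like the floor of 3 counts per library, cover counting error only, since PCR copies were not marked.

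Symbols matched RefSeq (GRCm38.p6) for 20649 genes and synonyms for 2352. As that is another build than the files', only names, chromosomes, gene order and RefSeq promoters were taken from it. The comparison, the gene lists and the rule for named genes were chosen with earlier results of these data known. The rule took 10 fixed genes, the 10 largest rises and falls of at least 5 CPM whose groups do not overlap, the 8 most counted rises and falls above 4-fold, and up to 5 genes per list (the 4 smallest p-values and the highest level). Other named genes were chosen after their values were seen. Some genes the rule picked are not reported here.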

Additional observations from a re-analysis of the deposited data

How the results depend on the processing

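The number of genes called, 7628, was 7643 with DESeq2's size factors, 7797 without the low-count filter, 7369 with at least 1 CPM in 2 libraries, 7476 by DESeq2, 7666 by limma-voom and 5944 in a fit of the 4 libraries alone. Leaving out 1 library gave 5534 (without shControl replicate 1) to 8882 (without Tmet replicate 1). Over genes, deviations of same-numbered libraries correlated at 0.27 to 0.375 among the 3 non-metastatic groups but at -0.0642, -0.223 and -0.274 between these and Tmet, so the numbers are not taken to pair samples. A replicate block gave 7351 calls and brought Krt18 (adjusted p = 0.0498) and Sh3pxd2a (0.0277) past the test. With 1 library left in a group, that library is assumed to vary like the other groups. Of 234 genes checked singly and called, 215 were called in every alternative that tested them (14 or 15) and 19 lost the call in at least 1. Many of the 234 were picked for small p-values or large changes in this same fit, so their share does not describe calls over all genes. Genes not called here whose Tmet libraries differ changed sign with the Tmet library left out: without replicate 1 and without replicate 2, Id2 was at 1.19 and -1.36, Ndrg1 at -2.14 and 0.59, Slc7a11 at -1.16 and 0.74, and Pck2 at -0.57 and 1.34 on the log2 scale. The cause was not tested. Medians of all tested genes stayed between -0.001 and 0.033 log2 units. With 2 libraries per group no library can be judged an outlier, and genes under the floor of about 3 counts cannot be told from absent ones.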
